A study of Rattus norvegicus with 48 samples.

Results

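A set of 4 arrays in the series carried far more transthyretin (Ttr) signal than the other arrays of their brain area, and they are called choroid-rich here. They are motor cortex NSt-Con 1, CA1 NSt-Con 2, CA1 NSt-Con 3 and CA3 NSt-Con 3, that is 4 of the 48 arrays deposited and 4 of the 46 that hold a measurement of their own. They were chosen by their Ttr level, so the difference between them and the remaining arrays of their area is described below and not tested. There are 10 remaining arrays of motor cortex, 9 of CA1 and 11 of CA3. The 12 amygdala arrays took no part in the choice.

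Expression was measured in Sprague-Dawley males of generation F3, aged 120 days, with 1 whole-transcript array per RNA sample. The vinclozolin lineage (Vin) descends from mothers injected intraperitoneally with 100 mg/kg/day of vinclozolin, an anti-androgenic fungicide, between embryonic days 8 and 14. Mothers of the control lineage (Con) were injected with the DMSO vehicle. Stressed rats (St) spent 6 hours of each day in restraint for 21 days, from postnatal day 23 to 43, and non-stressed rats (NSt) did not. Rats lived in dyads of 1 Vin and 1 Con animal, and each array holds RNA from punches of 2 mm pooled over 4 rats. The groups used here are NSt-Vin, St-Vin, St-Con and NSt-Con, with 3 arrays per group and area. Numbers 1 to 3 stand for NSt dyad groups 1 to 3 or for St dyad groups 4 to 6, and the pools of a dyad group served all 4 areas. All 4 choroid-rich arrays are therefore NSt-Con, and CA1 NSt-Con 3 and CA3 NSt-Con 3 come from the same 4 rats. A p-value below therefore refers to the spread between pools of different animals, and the small number of arrays limits the precision.

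The choroid plexus is a vascular tissue that hangs into the brain's ventricles. Its single layer of epithelial cells secretes cerebrospinal fluid by moving ions and water across its apical membrane, and tight junctions between the cells form the barrier between blood and fluid. The epithelium makes transthyretin, a carrier of thyroid hormone and of the retinol-binding protein, in very large amounts, along with transporters, hormone receptors and growth factors that act on the brain through the fluid.

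The values are log2 signals from RMA, which summarises the probes of a gene and normalizes arrays to a common distribution. Median levels over all probe sets still differed between areas. Arrays of the same area correlated at 0.975 or more over 27342 probe sets. Motor cortex NSt-Vin 2 and CA1 St-Con 3 equal the mean of the other arrays of their group on all probe sets and were left out of every value. A difference below is always a log2 difference of 1 choroid-rich array from the mean of the remaining arrays of its area. Bulk signals cannot tell fewer cells of a type from less RNA per cell. Levels of different genes are not compared, since each probe set has its own response.

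Motor cortex NSt-Con 1 had a Ttr level of 15.02, CA1 NSt-Con 2 one of 15.04, CA1 NSt-Con 3 one of 15.59 and CA3 NSt-Con 3 one of 14.49. The remaining motor cortex arrays spanned 4.22 to 11.12 around a median of 7.19, with a mean of 7.50 ± 2.66 (SD, n = 10). The remaining CA1 arrays spanned 7.38 to 12.26 around a median of 10.43, with a mean of 10.35 ± 1.67 (SD, n = 9), and the remaining CA3 arrays 5.69 to 13.43 around a median of 11.12, with a mean of 10.42 ± 2.23 (SD, n = 11). The groups do not overlap, which the choice by Ttr fixes. The member closest to the limit is CA3 NSt-Con 3 at 14.49, and the closest array outside is CA3 St-Con 1 at 13.43. Ttr thus varied widely among the remaining arrays as well, with the largest SD in motor cortex and the widest range in CA3.

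**Figure D1:**
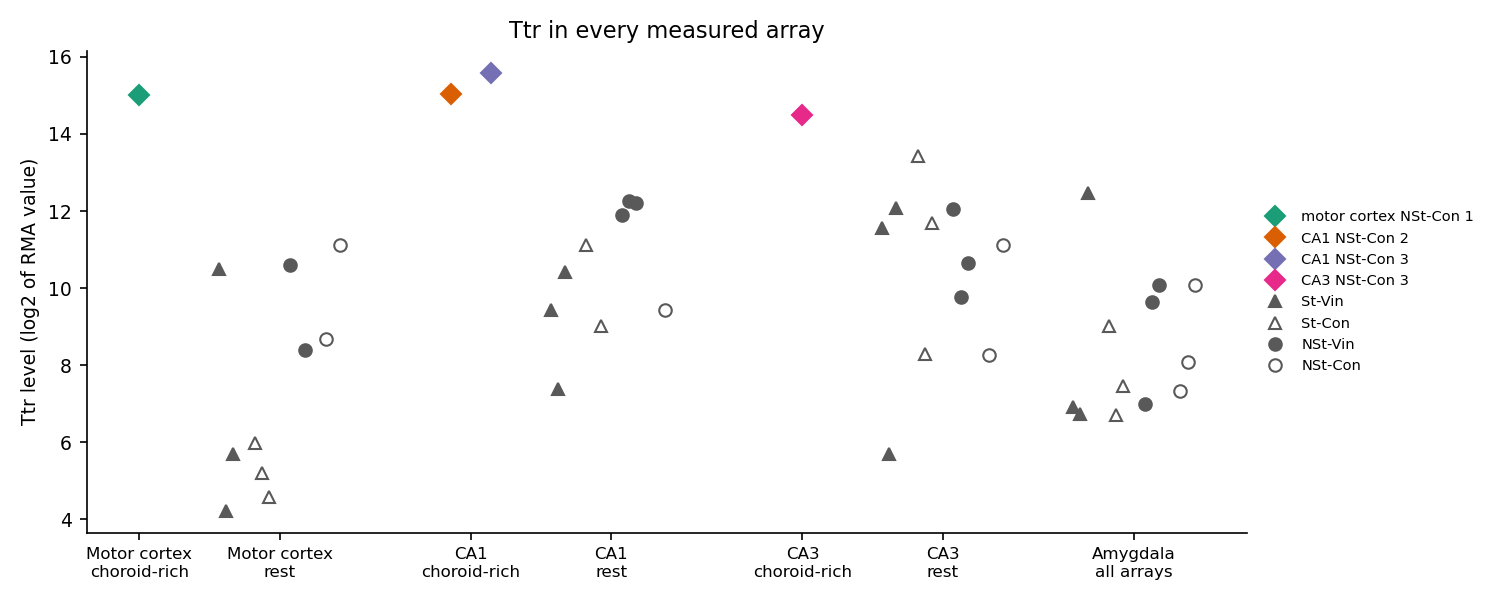
Ttr level (log2 signal) of every measured array, by area and group, with the choroid-rich arrays marked. The 4 choroid-rich arrays lie between 14.49 and 15.59, and the highest of the others is CA3 St-Con 1 at 13.43.

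High Ttr did not follow the rats through all areas. The Con pool of dyad group 1, which gave the choroid-rich motor cortex array, had Ttr at 7.32 in amygdala, 9.42 in CA1 and 8.26 in CA3. The Con pool of dyad group 2, which gave CA1 NSt-Con 2, had 8.08 in amygdala, 8.68 in motor cortex and 11.12 in CA3. The Con pool of dyad group 3 was choroid-rich in CA1 and in CA3 and had 10.07 in amygdala and 11.12 in motor cortex. Of the 3 pools, 1 was thus choroid-rich in more than 1 area.

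In the 4 choroid-rich arrays, 108 of 27342 probe sets, or 0.395%, were above the highest remaining array of the area every time, and 84 of them have 1 gene symbol. Below the lowest remaining array every time were 4 probe sets, or 0.0146%. The choice of the arrays bears on these counts, and nothing is read from them. A mean difference over 1 was found for 44 probe sets and one under -1 for 0. The 15 genes with the highest mean differences among those above the remaining arrays in all 4 were Ttr, Kl, Kcnj13, Clic6, Sostdc1, Cldn2, Htr2c, Igfbp2, Ace, Cltrn, Enpp2, Folr1, Mfrp, Cfap300 and Mdk. Of the 108 probe sets, 48 had a mean difference under 0.5, against a median of 0.55 over the 108 and of -0.0021 over all probe sets.

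The label was checked against markers of the choroid plexus epithelium other than Ttr. Of 13 such markers 12 have a named probe set, and 12 of 12 were above all remaining arrays in all 4 choroid-rich arrays. Otx2, the homeobox factor of this epithelium, is not analysed here. The choroid gene lists followed below hold these 12 markers. On them 28 of 74 measured genes were above in all 4, against 0.395% of all probe sets. The result of 12 of 12 thus depends on which markers were picked. The marker check rests on the same arrays as the choice and is given as a description. Ependymal cells line the ventricles beside the choroid plexus, and of 4 markers 2 have a named probe set. Drc12 was above the remaining arrays in 1 choroid-rich array and Dynlrb2 in 0.

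Promoters of 4 of the 15 named genes are shown, those in the promoter table that hold one of the motifs searched, so their matches say nothing of how common a motif is. The sequences are RefSeq's on assembly GRCr8, 250 bases before to 50 after the annotated start, 5′ to 3′ on the gene's strand. Kcnj13 lies on the minus strand at chr9:95518937-95519236 and Ace on the plus strand at chr10:91409879-91410178. Cltrn lies on the minus strand at chrX:34027075-34027374 and Mfrp on the plus strand at chr8:53342284-53342583. Capitals mark TATAAA, the TATA box, or TAATCC, the core bound by OTX homeodomain factors, on either strand (TTTATA and GGATTA on the other). In Ace both motifs overlap, so its capitals run on.
Kcnj13: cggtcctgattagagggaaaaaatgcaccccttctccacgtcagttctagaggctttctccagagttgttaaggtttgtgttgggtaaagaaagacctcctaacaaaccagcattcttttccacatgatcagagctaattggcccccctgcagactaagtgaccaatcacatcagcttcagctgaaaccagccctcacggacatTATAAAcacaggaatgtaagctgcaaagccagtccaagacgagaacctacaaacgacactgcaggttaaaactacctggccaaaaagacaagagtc
Ace: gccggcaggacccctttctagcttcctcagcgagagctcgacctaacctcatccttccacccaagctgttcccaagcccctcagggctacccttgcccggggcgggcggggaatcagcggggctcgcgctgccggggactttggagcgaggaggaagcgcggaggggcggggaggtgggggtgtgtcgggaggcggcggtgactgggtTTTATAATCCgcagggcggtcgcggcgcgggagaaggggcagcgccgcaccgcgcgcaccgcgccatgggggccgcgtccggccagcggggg
Cltrn: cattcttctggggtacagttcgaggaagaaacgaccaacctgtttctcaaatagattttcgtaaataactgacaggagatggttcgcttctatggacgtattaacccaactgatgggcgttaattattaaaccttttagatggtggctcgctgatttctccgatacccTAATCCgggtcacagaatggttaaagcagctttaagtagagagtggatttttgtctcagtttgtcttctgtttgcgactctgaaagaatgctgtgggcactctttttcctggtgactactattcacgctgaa
Mfrp: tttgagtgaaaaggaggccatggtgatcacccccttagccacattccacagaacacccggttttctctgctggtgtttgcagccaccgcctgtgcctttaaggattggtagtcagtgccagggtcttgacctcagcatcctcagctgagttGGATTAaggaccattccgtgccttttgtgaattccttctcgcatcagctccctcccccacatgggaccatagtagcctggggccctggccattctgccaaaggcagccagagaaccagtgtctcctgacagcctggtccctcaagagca

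Of 11823 promoters of genes on the array, 11.8% hold TATAAA, 6.34% hold TAATCC and 2.88% hold the forkhead site TGTTTAC, each counted on both strands. Of the genes above the remaining arrays in all 4, 63 have a promoter in the table. TATAAA was found in 7 of them (11.1%), TAATCC in 9 (14.3%), TGTTTAC in 2 (3.17%). The 9 with TAATCC are Ace, Cltrn, Mfrp, Car14, Gulp1, Pla2g5, Abca4, Tmem38b and Grhpr. The median GC content was 57.7% in the 63 promoters and 58.0% in all. These matches describe letters in a window and show no binding.

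Channels and junction proteins of the fluid-secreting epithelium were among the largest differences. Kcnj13, the apical inward rectifier potassium channel Kir7.1, had 9.90, 8.61, 10.92 and 12.06 in motor cortex NSt-Con 1, CA1 NSt-Con 2, CA1 NSt-Con 3 and CA3 NSt-Con 3. Its lowest, median and highest remaining arrays were 5.37, 5.86 and 7.30 in motor cortex, 6.09, 6.94 and 7.75 in CA1, and 6.49, 7.90 and 9.39 in CA3. The mean difference was 3.38 ± 1.13 (SD over the 4 arrays), which is 10.4-fold, and CA1 NSt-Con 2 was closest to its area. Clic6, a chloride intracellular channel protein, had 9.15, 8.02, 9.87 and 10.05 in the same order of arrays. Its remaining arrays reached at most 6.31, 6.95 and 7.60 in motor cortex, CA1 and CA3, and its mean difference was 3.06 ± 0.96. Cldn2, the claudin that makes tight junctions permeable to cations, had 8.45, 7.20, 9.51 and 9.99, against at most 6.22, 6.99 and 7.73 in the remaining arrays of motor cortex, CA1 and CA3. CA1 NSt-Con 2 at 7.20 and the remaining array CA1 St-Vin 3 at 6.99 are the closest pair.

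Receptors and enzymes of the epithelial surface stood out in the same arrays. Kl, or Klotho, the co-receptor of the hormone FGF23, had 9.55, 7.92, 10.40 and 10.65 in motor cortex NSt-Con 1, CA1 NSt-Con 2, CA1 NSt-Con 3 and CA3 NSt-Con 3. The lowest, median and highest remaining arrays for Kl were 5.15, 5.27 and 6.69 in motor cortex, 5.28, 6.33 and 7.07 in CA1, and 5.42, 6.69 and 7.83 in CA3. The mean difference of Kl was 3.39 ± 1.17, or 10.5-fold. Htr2c, the serotonin 2C receptor, which is also made by neurons, had 10.48, 10.00, 11.50 and 11.55. Its remaining arrays spanned 6.69 to 8.46 in motor cortex, 8.51 to 9.68 in CA1 and 8.74 to 9.96 in CA3. Htr2c thus had signal in the remaining hippocampal arrays too, and the closest pair was CA1 NSt-Con 2 at 10.00 and CA1 NSt-Vin 3 at 9.68.

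Ace, the angiotensin-converting enzyme, had differences of 2.38, 0.71, 2.64 and 2.54 in motor cortex NSt-Con 1, CA1 NSt-Con 2, CA1 NSt-Con 3 and CA3 NSt-Con 3. Cltrn, or collectrin, a membrane partner of amino acid transporters, had 2.17, 0.78, 2.33 and 2.96. Folr1, the folate receptor through which folate reaches the fluid, had 1.93, 0.54, 2.64 and 2.87. Each of these 3 genes was above every remaining array: in CA1 NSt-Con 2, the lowest of the 4, Ace stood at 7.01, Cltrn at 6.74 and Folr1 at 6.92, against at most 6.64, 6.24 and 6.55 in the remaining CA1 arrays. Mfrp, a membrane protein of the retinal pigment epithelium related to frizzled receptors, had 9.14, 8.52, 10.09 and 10.77, against at most 7.62, 7.94 and 8.82 in the remaining arrays of motor cortex, CA1 and CA3. In all 4 genes, as in Kcnj13 and Kl, the smallest difference was that of CA1 NSt-Con 2.

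Secreted proteins formed another set. Sostdc1, a secreted antagonist of BMP and Wnt signals, had 8.80, 8.04, 10.44 and 10.75 in motor cortex NSt-Con 1, CA1 NSt-Con 2, CA1 NSt-Con 3 and CA3 NSt-Con 3, and a mean difference of 2.70 ± 1.12. Its remaining arrays spanned 5.62 to 6.56 in motor cortex, 6.56 to 7.61 in CA1 and 6.25 to 8.13 in CA3. Igfbp2, a binding protein of insulin-like growth factors, had differences of 2.29, 0.68, 2.79 and 2.73 in the same order of arrays. Enpp2, or autotaxin, which makes lysophosphatidic acid and is also found in oligodendrocytes, had 2.64, 0.99, 2.19 and 2.39. Mdk, the heparin-binding growth factor midkine, had 2.10, 0.51, 2.19 and 1.95. Over the remaining arrays of an area these 4 genes had SDs between 0.125 for Mdk in CA1 and 0.656 for Enpp2 in CA3. Cfap300, a protein needed to assemble motile cilia, had differences of 1.95, 0.89, 2.32 and 2.03 and was the cilium gene among the 15.

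**Figure D2:**
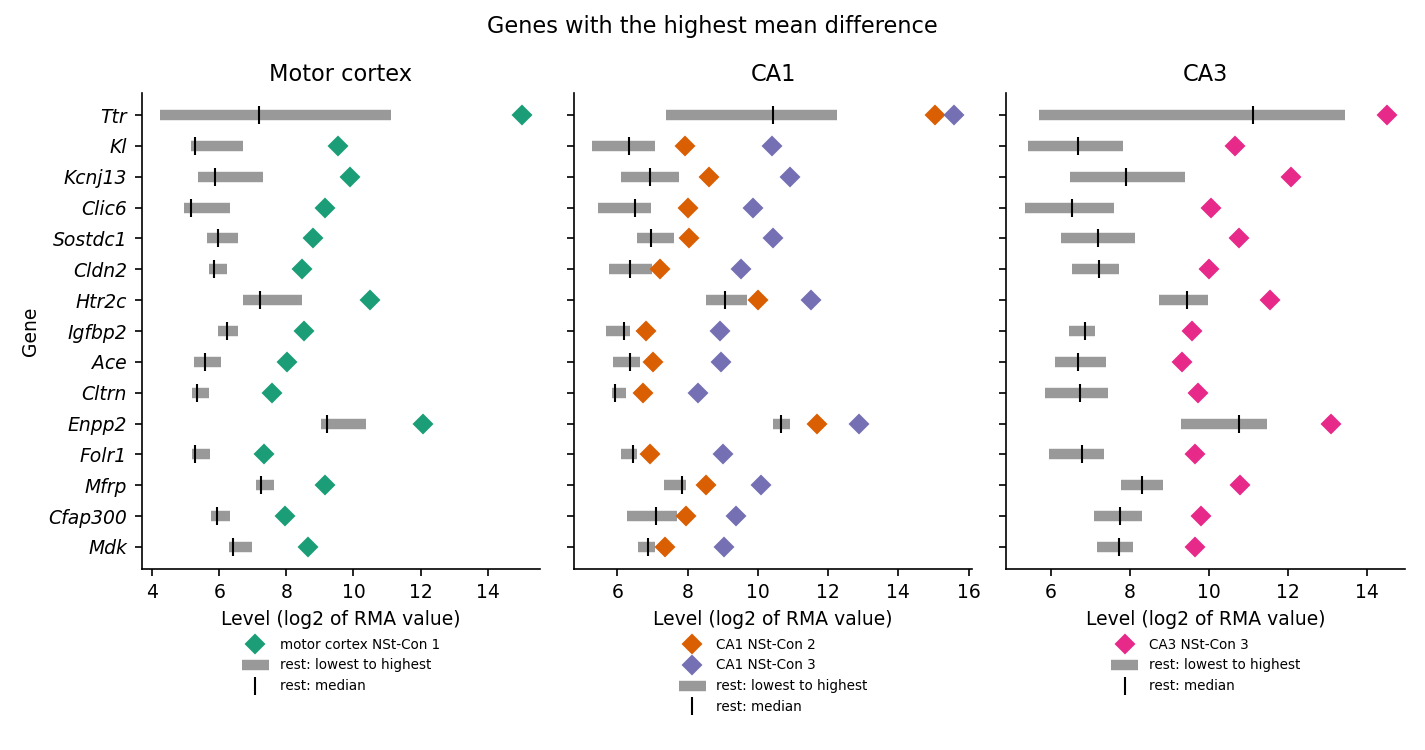
Level (log2 signal) of the 15 named genes in each choroid-rich array, with bars for the range of the remaining arrays of the same area, 1 panel per area. Each point lies above its bar.

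Genes of the choroid plexus were then followed over 4 lists with 74 measured members, of which 28 were above all remaining arrays in all 4 choroid-rich arrays. The median differences over the 74 were 0.41, 0.18, 0.60 and 0.53 in motor cortex NSt-Con 1, CA1 NSt-Con 2, CA1 NSt-Con 3 and CA3 NSt-Con 3. In a single array, 49, 34, 57 and 52 of the 74 were above the highest remaining array of the area. Over all probe sets the shares were 8.4%, 7.82%, 19.1% and 9.69%. The lists were drawn up with these results known, so their counts only describe the arrays.

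Of the transporters and channels, 28 of 30 are measured and 10 were above all remaining arrays in all 4. Slc4a5, the sodium bicarbonate cotransporter of the apical membrane, had differences of 1.60, 0.59, 2.33 and 1.98 in motor cortex NSt-Con 1, CA1 NSt-Con 2, CA1 NSt-Con 3 and CA3 NSt-Con 3. Slc13a4, a sulfate transporter, had 1.46, 0.37, 2.14 and 1.88, and Slc2a12, a glucose transporter, had 1.44, 0.43, 1.94 and 1.78. Aqp1, the apical water channel, had 1.06, 0.26, 0.99 and 1.53, and Kcne2, a potassium channel subunit, had 1.12, 0.38, 0.99 and 1.30. Car12, a carbonic anhydrase, had 1.39, 0.78, 1.99 and 0.21, and was above the remaining arrays in motor cortex NSt-Con 1 and CA1 NSt-Con 3 but not in the other 2. Some of the list hardly differed: Slc15a2, a peptide transporter, had -0.06, 0.02, -0.13 and -0.13, and Atp1b1, a subunit of the sodium pump that neurons make too, had 0.05, -0.03, 0.05 and -0.01. The medians over the 28 were 0.59, 0.19, 0.73 and 0.58, so the list held differences over 1 and others near 0.

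The other lists showed the same mixture. Of the secreted proteins 17 of 20 are measured and 8 were above all remaining arrays in all 4, among them Igf2, the growth factor, with 1.11, 0.28, 1.38 and 1.15 in motor cortex NSt-Con 1, CA1 NSt-Con 2, CA1 NSt-Con 3 and CA3 NSt-Con 3. F5, coagulation factor V, had 1.07, 0.92, 2.28 and 2.33. Of the receptors and enzymes 14 of 19 are measured and 7 were above in all 4, among them Prlr, the prolactin receptor, with 0.58, 0.35, 1.25 and 1.37. Lrp2, or megalin, the endocytic receptor, had -0.05, -0.02, 0.13 and 0.01. Of the transcription factors and epithelial genes 15 of 16 are measured and 3 were above in all 4, among them Msx1, a homeobox factor, with 1.11, 0.58, 1.52 and 1.46, and Cldn1, another claudin, with 0.71, 0.43, 1.25 and 0.99.

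**Figure D3:**
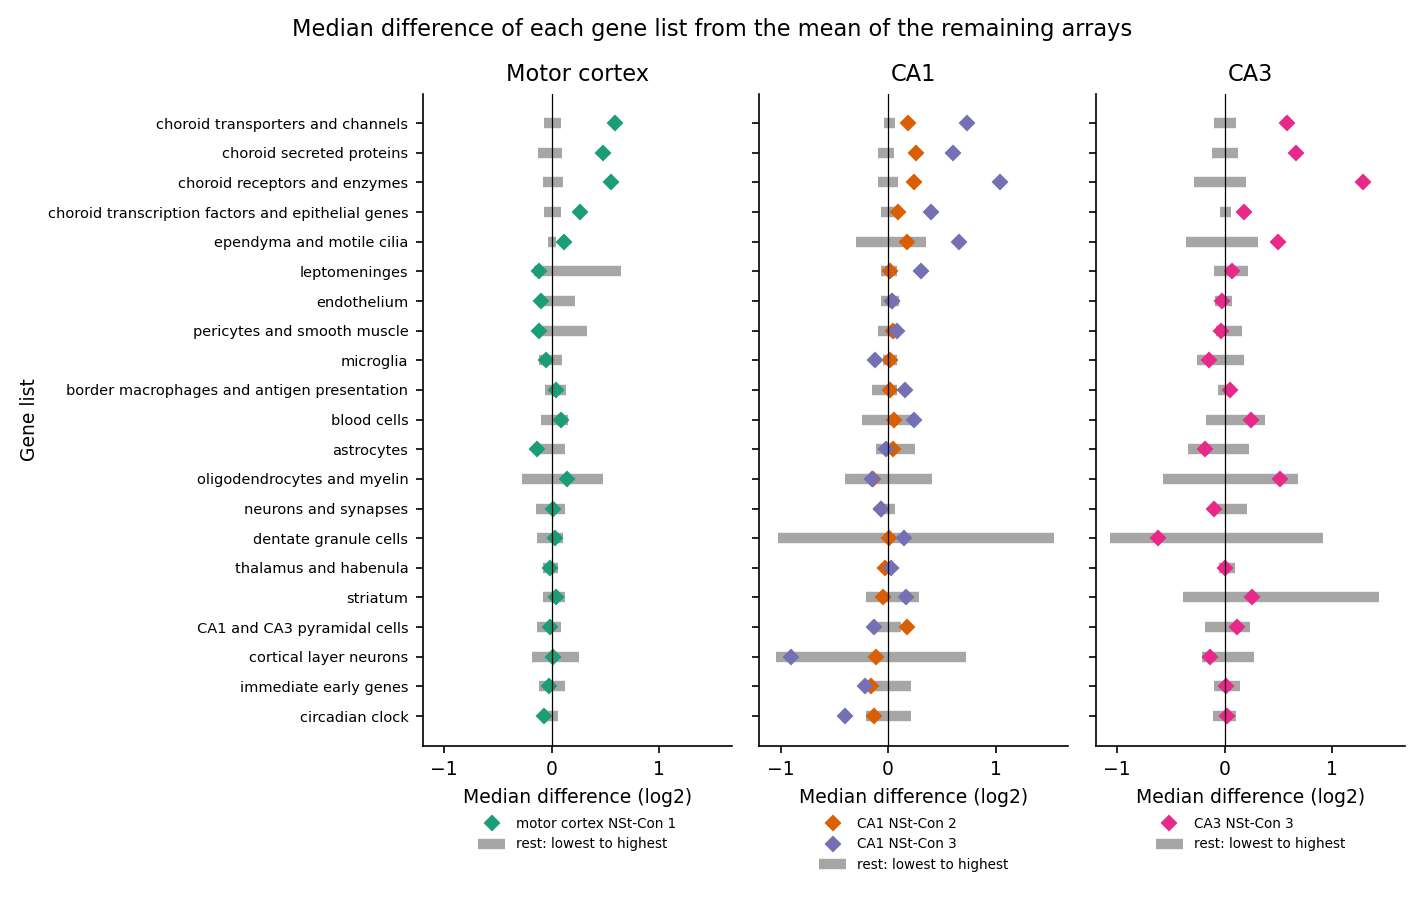
Median log2 difference of each choroid-rich array from the remaining arrays of its area, for 21 gene lists. The choroid lists lie to the right of 0 in all 4 arrays, from 0.09 for the transcription factors in CA1 NSt-Con 2 to 1.29 for the receptors and enzymes in CA3 NSt-Con 3.

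The 4 arrays did not carry the same amounts of the choroid genes. Excess was computed on the linear scale, as 2 to the level minus 2 to the remaining mean, and set against CA1 NSt-Con 3. The median level over all probe sets was 6.77 in motor cortex NSt-Con 1, 7.15 in both CA1 arrays and 7.39 in CA3 NSt-Con 3. The excess was not adjusted for these medians, so percents between areas are not on a common scale. Ttr had an excess of 68.8% in the motor cortex array, 67.4% in CA1 NSt-Con 2 and 45.1% in CA3 NSt-Con 3. For the other 14 named genes the median was 52.3% in motor cortex NSt-Con 1, with a range of 27.0 to 75.1%. It was 13.9% in CA1 NSt-Con 2, with a range of 8.66 to 27.7%, and 131% in CA3 NSt-Con 3, with a range of 99.8 to 291%. CA1 NSt-Con 2 thus had Ttr near that of the motor cortex array and less of each of the other 14. These ran from Cfap300 at 21.3% against 34.7% to Igfbp2 at 10.2% against 70.9%. Without adjustment for the medians, CA3 NSt-Con 3 had the least Ttr of the 4 and, for most of the others, the most. The highest value in the whole table is the Ttr level of CA1 NSt-Con 3, and whether signals of this size still scale with RNA was not tested.

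**Figure D4:**
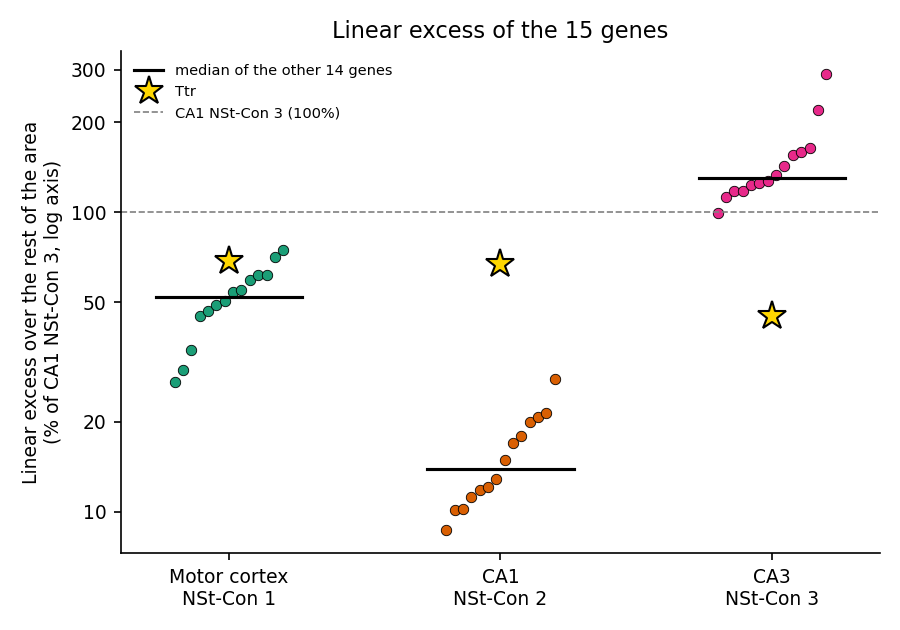
Excess of the 15 named genes on the linear scale as a percent of the excess in CA1 NSt-Con 3 (log axis), for the other 3 choroid-rich arrays. Ttr lies at 68.8, 67.4 and 45.1%, and the other 14 genes have medians of 52.3, 13.9 and 131% in motor cortex NSt-Con 1, CA1 NSt-Con 2 and CA3 NSt-Con 3.

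Ependymal cells and the choroid epithelium share motile cilia. Among the choroid-rich arrays, genes of motile cilia differed most in CA1 NSt-Con 3 and CA3 NSt-Con 3. Of 26 listed, 20 are measured, and the medians were 0.11, 0.18, 0.66 and 0.50 in motor cortex NSt-Con 1, CA1 NSt-Con 2, CA1 NSt-Con 3 and CA3 NSt-Con 3. Above the highest remaining array were 7, 0, 14 and 14 of the 20, against 8.4%, 7.82%, 19.1% and 9.69% of all probe sets, and 0 members were above in all 4. Dnah12, a heavy chain of the ciliary motor dynein, had levels of 5.10, 6.72, 8.45 and 8.01. Its remaining arrays spanned 4.71 to 4.92 in motor cortex, 5.34 to 7.43 in CA1 and 5.36 to 7.54 in CA3. The highest remaining CA1 array was NSt-Vin 3, from the cage mates of the choroid-rich CA1 NSt-Con 3 rats. In CA3 it was St-Con 3, from dyad group 6. List medians of the remaining arrays reached 0.36 in CA1 NSt-Vin 3 and 0.31 in CA3 St-Vin 3. Enkur, a protein of the sperm and cilium axoneme, had differences of 0.77, 0.18, 1.09 and 1.63.

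Markers of other tissues beside the ventricle moved in some of the arrays. Of 20 genes of the leptomeninges, the membranes around the brain, 18 are measured, with medians of -0.12, 0.02, 0.30 and 0.07 in motor cortex NSt-Con 1, CA1 NSt-Con 2, CA1 NSt-Con 3 and CA3 NSt-Con 3. Above the highest remaining array were 1, 3, 13 and 6 of the 18, against 8.4%, 7.82%, 19.1% and 9.69% of all probe sets. Ptgds, the prostaglandin D synthase of the meninges and the choroid plexus, had differences of -0.05, -0.02, 1.15 and 0.78, and Lum, the matrix protein lumican, -0.17, 0.06, 1.03 and -0.10. The fibroblast collagen Col1a2 had -0.38, -0.09, 0.32 and -0.05. RT1-Da, an MHC class II chain of antigen-presenting cells, had 0.31, 0.28, 0.81 and 0.71 and was above the remaining arrays in all 4. It was the one such member of 10 measured genes of border macrophages and antigen presentation, whose medians were 0.04, 0.01, 0.15 and 0.05. The part of these cells in the differences was not tested.

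Lists of the brain's own cells went both ways, with most medians near 0. The medians of neuron and synapse genes were 0.02, -0.07, -0.06 and -0.09 in motor cortex NSt-Con 1, CA1 NSt-Con 2, CA1 NSt-Con 3 and CA3 NSt-Con 3. Those of astrocyte genes were -0.14, 0.04, -0.02 and -0.19, and those of microglia genes -0.06, 0.01, -0.12 and -0.14. In motor cortex NSt-Con 1, 6 of 11 astrocyte genes were below the lowest remaining array and 0 above the highest, against 12.8% and 8.4% of all probe sets. In CA1 NSt-Con 3, 5 of 10 microglia genes were below and 0 above, against 20.5% and 19.1%. The microglia median there lay below the -0.05 to 0.08 of the remaining CA1 arrays. Myelin genes had 0.14, -0.14, -0.15 and 0.51, with the remaining CA3 arrays between -0.57 and 0.69. Of 10 genes of cortical layer neurons 4 are measured, with 0.01, -0.11, -0.90 and -0.14, and the remaining CA1 arrays lay between -1.05 and 0.72. Of 4 genes of dentate granule cells 2 are measured, with 0.03, 0.01, 0.14 and -0.62, and the remaining CA3 arrays lay between -1.07 and 0.91. The named genes below all remaining arrays in the 4 were Slc41a2, a magnesium transporter, at a mean of -0.24, Tor3a, a torsin ATPase, at -0.11 and Ets1, a transcription factor, at -0.11.

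CA1 NSt-Con 3 differed from its area in more than choroid genes. It had 154 probe sets over 1 and 84 under -1, against 44 and 3 in motor cortex NSt-Con 1, 7 and 0 in CA1 NSt-Con 2, and 84 and 0 in CA3 NSt-Con 3. Genes of hippocampal pyramidal cells went both ways there. Of 10 measured, 3 were above the highest remaining CA1 array and 4 below the lowest, against 19.1% and 20.5% of all probe sets. Their median was -0.13, within the -0.16 to 0.12 of the remaining CA1 arrays. Among them Wfs1, a gene of CA1 pyramidal cells, stood at 8.39 in CA1 NSt-Con 3, and 9.19 to 10.62 in the remaining CA1 arrays. Cpne4, a copine of hippocampal pyramidal cells that is not among the 10, stood at 11.93, against 6.61 to 11.87. The nearest array in both was CA1 NSt-Vin 3, the pool of the cage mates, with Wfs1 at 9.19, Cpne4 at 11.87, Ttr at 12.21, and 62 probe sets over 1 and 74 under -1. CA1 NSt-Con 2 had Wfs1 at 10.20 and Cpne4 at 10.20, both within the remaining CA1 arrays. CA1 arrays and CA3 arrays were not separated by Wfs1, which spanned 9.58 to 10.87 in the remaining CA3 arrays.

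Some genes of neuronal activity and most of the circadian clock were also low in CA1 NSt-Con 3. Of 23 measured immediate early genes, 9 were below the lowest remaining CA1 array there, and 4 had a difference above 0. Their median was -0.21, the same as that of the remaining array CA1 NSt-Vin 3. In motor cortex NSt-Con 1, CA1 NSt-Con 2 and CA3 NSt-Con 3 the numbers below were 2, 2 and 1. Egr1, an activity-induced zinc finger factor, had levels of 9.85, 9.27, 8.10 and 9.09 in motor cortex NSt-Con 1, CA1 NSt-Con 2, CA1 NSt-Con 3 and CA3 NSt-Con 3. The remaining arrays spanned 9.67 to 10.21 in motor cortex, 8.44 to 10.26 in CA1 and 8.62 to 9.85 in CA3, so of the 4 arrays CA1 NSt-Con 3 alone was outside its range. Arc, a synaptic immediate early gene, was -1.22 from the remaining mean there. Of 13 clock genes 10 were below the lowest remaining array in CA1 NSt-Con 3, against 4, 1 and 1 in motor cortex NSt-Con 1, CA1 NSt-Con 2 and CA3 NSt-Con 3. The shares over all probe sets were 20.5% in CA1 NSt-Con 3 and 12.8%, 7.35% and 6.03% in the other 3. Npas2, the partner of BMAL1 in the clock, had -1.03 there.

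The amygdala gave arrays that the choice had not used, and the question was which genes vary with Ttr there. Ttr stood between 6.70 in St-Con 2 and 12.46 in St-Vin 3. A slope per log2 unit of Ttr was fitted with limma over the 12 arrays, with the 4 groups in the model. Of 27341 probe sets 0 (0%) passed an adjusted p of 0.05. At an unadjusted p under 0.05, 1539 (5.63%) had a positive slope and 2352 (8.6%) a negative one. Kcnj13 had the smallest p, with a slope of 0.20 ± 0.024 (SE) and a limma adjusted p of 0.0904, and next came Kcnv1, a modifying subunit of neuronal potassium channels, with -0.12 ± 0.016, and Itgbl1, an integrin-like matrix protein, with 0.20 ± 0.028, at the same adjusted p. Kl had 0.16 ± 0.025 (adjusted p = 0.0904). Clic6 had 0.14 ± 0.025 (adjusted p = 0.139), Sostdc1 0.074 ± 0.013 (0.128) and Cldn2 0.084 ± 0.018 (0.2). The other named genes did not pass either: Enpp2 had 0.15, Igfbp2 0.059, Mfrp 0.062, Folr1 0.052, Cltrn 0.036, Cfap300 0.0038, Ace -0.0049 and Htr2c -0.13.

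Single arrays moved these slopes and calls. Kcnj13 stood at 7.33 in St-Vin 3 and between 5.80 and 6.17 in the other 11 amygdala arrays, and Kl at 6.87 and between 5.53 and 5.80. Without St-Vin 3 the slope of Kcnj13 was 0.11 ± 0.021 (limma adjusted p = 0.194) and that of Kl 0.073 ± 0.025 (0.21), while Enpp2 had 0.013. Of the 108 probe sets above the remaining arrays in all 4, 107 are left besides Ttr, and of these 31 had a positive slope at an unadjusted p under 0.05 and 6 a negative one, with a median slope of 0.016 against 0.0035 over all. Without St-Vin 3 the counts were 9 positive (8.41%) and 9 negative. Over all 27341 probe sets 7.16% were then positive and 2822 negative. Without St-Con 3, 947 probe sets passed, Kcnj13 and Kl among them at slopes of 0.20 and 0.16, and without St-Con 1, 111 passed. Other genes varied with Ttr too. At an unadjusted p under 0.05, 8 of 8 striatal genes had negative slopes, against 8.6% of all probe sets. Their median deviation was lowest in St-Vin 3, at -1.52. Of 4 blood genes 3 had positive slopes at that p, against 5.63% of all, with Hbb, a haemoglobin chain, at 0.19 ± 0.030 (limma adjusted p = 0.0904). Of 13 clock genes 8 had negative slopes at that p and 1 a positive one. Of 20 cilium genes 19 had slopes above 0, against 15462 of all 27341 probe sets, and 5 of them at that p, against 5.63%. Slopes above 0 were also found for 9 of 10 genes of border macrophages and antigen presentation. The part of these genes in the slopes was not tested.

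**Figure D5:**
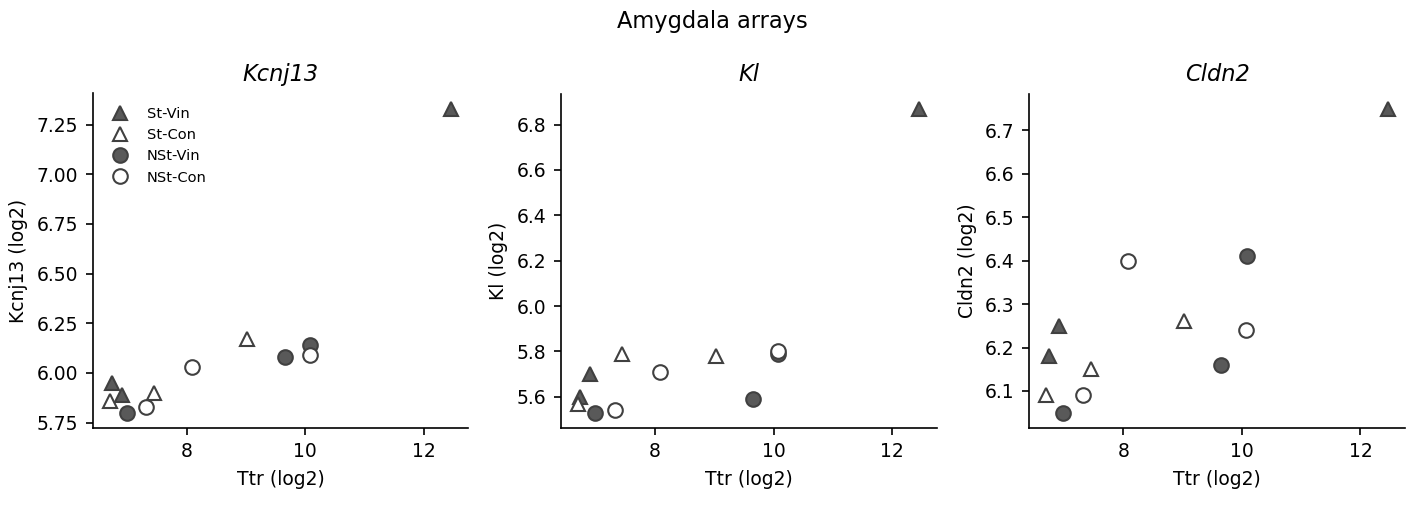
Levels (log2 signal) of Kcnj13, Kl and Cldn2 against Ttr (log2 signal) in the 12 amygdala arrays, with marker shape and fill by group. St-Vin 3, at a Ttr of 12.46, is the highest array for all 3 genes.

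Because all 4 choroid-rich arrays are NSt-Con, they enter every comparison against that group, and the comparisons of an area share the same NSt-Con arrays. Fits with and without the choroid-rich arrays were therefore set side by side, which leaves 2 NSt-Con arrays of motor cortex, 1 of CA1 and 2 of CA3. The lone CA1 array was assumed to vary like the other groups. Motor cortex NSt-Vin and CA1 St-Con have 2 measured arrays.

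Ttr chose the arrays, so its differences are given with no test. In motor cortex the Ttr difference of St-Con from NSt-Con was -6.35 with and -4.64 without NSt-Con 1. The stressed motor cortex arrays had Ttr at 5.98, 5.21 and 4.58 in St-Con and at 10.50, 4.22 and 5.70 in St-Vin, against 8.39 to 11.12 in the non-stressed arrays other than NSt-Con 1. The groups St-Con and NSt-Con did not overlap with or without NSt-Con 1. They were also scanned on different days, so stress and scan day cannot be told apart for Ttr. In CA1 the Ttr difference from NSt-Con was -1.23 with and 2.70 without the choroid-rich arrays for NSt-Vin, and -3.29 and 0.65 for St-Con. In CA3 the Ttr difference was -0.47 and 1.13 for NSt-Vin and -0.15 and 1.45 for St-Con. Removing the NSt-Con arrays with the highest Ttr had to move these differences upward, so the direction of the shift was fixed by the choice. Whether the sign changed also depended on the levels of the NSt-Con arrays left. It changed in the 4 hippocampal comparisons and not in motor cortex St-Con.

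Kl and the 108 probe sets are high in the same arrays, so the direction of their shift is likewise set by the choice and only its size is described. The difference of Kl from NSt-Con was -1.79 with and 0.07 without the choroid-rich arrays in CA1 NSt-Vin, -1.97 and -0.11 in CA1 St-Con, -1.13 and 0.21 in CA3 NSt-Vin, and -0.89 and 0.45 in CA3 St-Con. In motor cortex St-Con it was -1.98 and -0.79. Over the 108 probe sets, the median difference was -0.29 with and 0.04 without in CA1 NSt-Vin, and -0.37 and -0.02 in CA1 St-Con. In motor cortex St-Con it stayed below 0, at -0.24 and -0.11, and in CA3 it was -0.22 and 0.05 for NSt-Vin and -0.21 and 0.03 for St-Con.

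Counts at an unadjusted p under 0.05 are subject to the same choice and are given as a description. Of the 108 probe sets, 24 were lower in CA1 NSt-Vin with the choroid-rich arrays and 0 without them, against 1.05% and 1.07% of all probe sets. In CA1 St-Con the counts were 29 and 1, against 1.95% and 1.36%. In motor cortex St-Con they were 57 and 30, against 10.3% and 10.2%, and in motor cortex NSt-Vin 12 and 2, against 3.15% and 3.7%. In CA3 they were 5 and 2 for NSt-Vin, against 2.44% and 3.69%, and 7 and 4 for St-Con, against 1.81% and 2.72%. The counts without the choroid-rich arrays also rest on fewer arrays.

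The stress comparison of the control lineage in motor cortex was the one with calls. At an adjusted p under 0.05 (limma), 174 probe sets (0.636%) passed, of which 76 had a positive difference of St-Con from NSt-Con and 98 a negative one. Without NSt-Con 1, 19 (0.0695%) passed, 11 with a positive and 8 with a negative difference, and 17 of these were among the 174. Of the 108 probe sets above the remaining arrays in the choroid-rich arrays, 1 was among the 174, a probe set with no symbol. All 174 kept their sign without NSt-Con 1. Their median size was 0.37 with and 0.38 without it, while the median SE was 0.063 and 0.072. NSt-Con 1 lay further from the St-Con mean than the mean of the other NSt-Con arrays did in 84 of the 174. Leaving out another single array of the 2 groups gave 0 calls (NSt-Con 3 or St-Con 1), 4 (NSt-Con 2), 13 (St-Con 2) or 19 (St-Con 3).

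The 174 hold 2 members of the gene lists, which are named for that reason after their values were seen. Lmx1a, a homeobox factor of the choroid transcription factor list, fell by 0.29 in St-Con (limma adjusted p = 0.0463, and 0.092 without NSt-Con 1). Agt, angiotensinogen, of the astrocyte list, rose by 0.42 (0.0404, and 0.0821 without). Or6c219, an olfactory receptor gene, was above NSt-Con by 0.80 ± 0.087 in St-Con (limma adjusted p = 0.0181), and by 0.78 without NSt-Con 1 (0.0333). In the non-stressed NSt-Vin arrays Or6c219 was above NSt-Con by 0.75 ± 0.097 (limma adjusted p = 0.144). Both differences of Or6c219 are taken from the same NSt-Con arrays, so nothing on stress is read from their similar size. RT1-CE2, an MHC class I gene of a family of near-identical copies, rose by 0.59 (0.022) and by 0.67 without (0.0333). Rnf135, an E3 ubiquitin ligase of antiviral signalling, rose by 0.77 (0.0452) and H4c14, a histone H4 gene, by 0.45 (0.0289). Without NSt-Con 1 their adjusted p-values were 0.0897 and 0.0578. Igfbp6, a binding protein of insulin-like growth factor 2, fell by 0.66 (0.0463), and Olr5, an olfactory receptor gene, by 0.65 (0.0498). Fam133b fell by 0.61 (0.0432), and RT1-S2, another MHC class I gene, by 0.57 (0.0463). These 4 had adjusted p-values of 0.0947, 0.085, 0.0749 and 0.0947 without NSt-Con 1. All NSt-Con arrays of motor cortex were scanned on 1 day and all St-Con arrays on another, so no scan day gives a value of its own. With scan day as a block, which rests on the NSt-Vin arrays, 0 passed.

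The other 5 comparisons had 0 calls with the choroid-rich arrays. Without them, 4 had 0 calls in limma, at unadjusted counts of 1677 for motor cortex NSt-Vin, 854 for CA1 NSt-Vin, 793 for CA1 St-Con and 1573 for CA3 St-Con, against 1554, 898, 889 and 975 with them. In CA3 NSt-Vin 1 unnamed probe set (0.00366%) passed without CA3 NSt-Con 3, and the unadjusted count was 2017 without and 1470 with it. Leaving out the choroid-rich arrays thus added unadjusted calls in CA3 and took some away in CA1.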

How the data were processed

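RNA from punches of 4 brain areas was hybridised to 48 whole-transcript arrays. The authors deposited log2 signals, made with Partek and RMA per the submitters' processing notes, which give no versions. Gene symbols come from the platform annotation, which gives 15097 of 27342 probe sets 1 symbol, 323 several and 11922 none. Of these entries 15067 were matched to RefSeq on GRCr8, with 0 symbols changed.

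The arrays and gene lists were chosen with earlier results of these data known. For each probe set the mean of the remaining measured arrays of the area was subtracted, and no test was run on that contrast. The 2 arrays equal to the mean of the other arrays of their group, within 0.0051, were left out. Slopes on Ttr in the amygdala and the comparisons of the study were fitted in R 4.3.3 by limma 3.58.1, two-sided, with all groups of an area sharing 1 spread and p-values adjusted by Benjamini-Hochberg over all probe sets. The scripts were tested on simulated data.

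Named genes are the 15 highest and up to 8 lowest beyond all remaining arrays in all 4, chosen list members, the amygdala slopes of the smallest p, and the 4 highest and 4 lowest called per comparison, with Ttr throughout. The labels pair Vin and Con pools by dyad group. Deviations of paired pools from their group means correlated above 0.1 in 6 of 6 pairs in amygdala, 5 of 5 in CA1, 5 of 6 in CA3 and 3 of 5 in motor cortex. Alternatives were a filter at the 30th percentile, quantile normalization, other reference arrays, a replicate block and scan day as a block. Others were Ttr as a covariate, other eBayes settings, all arrays kept, and leaving out each array. The replicate block was the dyad group for the amygdala slopes and the NSt-Vin comparisons, and the replicate number for the St-Con comparisons.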

Additional observations from a re-analysis of the deposited data

How the results depend on the processing

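The choroid-rich contrast has no threshold. Of its values for single genes under the alternatives, 155 shifted by less than the SD over the choroid-rich arrays and 3 by more. For the motor cortex comparisons 65 kept direction and side of the threshold, 69 lost their call and 1 gained one. For the amygdala slopes 286 kept both, 19 gained a call and 12 changed sign. In CA1 66 and in CA3 71 kept both, all for genes that the main fits did not call. For the choroid-rich arrays, 897 probe sets were above and 851 below when set against the remaining NSt-Con arrays of the area only, which are fewer. With quantile normalization 15 were below, and with the 30th-percentile filter 70 were above and 27 had a mean difference over 1. Leaving out 1 choroid-rich array gave 116 (without CA1 NSt-Con 3) to 394 (without CA1 NSt-Con 2) above, 11 to 65 below, 34 to 64 with a mean difference over 1, and a median of 0.40 to 0.59 for the choroid genes.

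The amygdala slopes gave 17 calls with no group term, 1 with trend and robust settings, and 0 to 947 when 1 array was left out, 947 without St-Con 3 and 111 without St-Con 1. The replicate block gave 0. Signs turned for Ace (0.1257 with the replicate block, and -0.081 to 0.0167 when 1 array was left out), Cltrn (-0.0109, replicate block), Ets1 (-0.0021, replicate block) and Cfap300 (-0.0037 with quantile normalization, and -0.0937 to 0.0448 when 1 array was left out).

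The motor cortex difference of St-Con from NSt-Con had 174 calls, 247 with the replicate block, 390 with quantile normalization and 1027 with all arrays kept. It had 50 with the 30th-percentile filter, 19 without the choroid-rich array, and 0 with Ttr as a covariate or with scan day as a block. The replicate block used replicate numbers here, which stand for different dyad groups in St-Con and NSt-Con. It thus paired no rats that shared a cage. Leaving out 1 array of either group gave 0 (NSt-Con 3 or St-Con 1), 4 (NSt-Con 2), 13 (St-Con 2) or 19 (NSt-Con 1 or St-Con 3). With all arrays kept, motor cortex NSt-Vin had 1 call. CA3 NSt-Vin had 1 call without the choroid-rich array, and 0 to 1 without 1 array, as had CA3 St-Con. The replicate block changed no other call. The cause of these changes was not tested, and the number of arrays limits all of them.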
